A study of Mus musculus with 12 samples.

Results

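The transcripts described here come from 10 genes of the NRF2 antioxidant programme: Gclm, Gclc, Slc7a11, Gsr, G6pdx, Txnrd1, Srxn1, Nqo1, Hmox1 and Nfe2l2. They were taken by symbol from a table of FPKM values (fragments scaled to transcript length and to the mapped total), which lists 24421 gene symbols. All 10 were found, and all 10 had a mean of at least 1 FPKM over the 12 samples, as did 12765 symbols in all. The samples were bulk RNA of mouse 425-ICC tumours, a model of intrahepatic cholangiocarcinoma, which arises from the bile ducts within the liver. All tumours had been under treatment for 8 days. Combination tumours received GC together with dual immune checkpoint blockade, GC tumours received GC alone, and ICB tumours received the dual blockade alone. Control tumours received control IgG. The labels give GC only as that abbreviation, and the checkpoint agents, per the series title, were CTLA-4 blockade and anti-PD1. Each group held 3 samples. Mouse strain, age and the site of the tumours are not given in the sources used here, nor is it stated that each sample was a different animal. The p-values therefore speak only of the spread among these samples, which may be technical.

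NRF2, the transcription factor encoded by Nfe2l2, is normally bound by KEAP1, which hands it to a CUL3 ubiquitin ligase for destruction. Oxidants and electrophiles modify cysteines of KEAP1, NRF2 then accumulates, pairs with a small MAF protein and switches on genes that carry an antioxidant response element. These genes make and recycle glutathione and thioredoxin, supply NADPH, detoxify quinones and break down haem. In the liver, hepatocytes are a main site of glutathione synthesis and of NRF2-driven drug conjugation. The same genes can thus be transcribed in hepatocytes as well as in tumour cells. Nfe2l2 is included as the gene of the factor itself.

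The promoters of 7 of the 10 genes were found in the RefSeq promoter table (GRCm38.p6), in 9 windows of 300 bases that run from 250 bases before to 50 bases after a transcript start. They were searched on both strands for the core of the antioxidant response element, TGACNNNGC, and for the related AP-1 site, TGAGTCA. The element core was present in 12.4% of 32817 windows of all genes and the AP-1 site in 5.20%, and in 149 windows a match of one overlapped a match of the other. The core matched in 5 of the 7 genes: Gclm, Srxn1, Txnrd1 (1 of its windows), G6pdx and Nfe2l2. No window of Nqo1 or Slc7a11 held these letters. The AP-1 letters were found in Srxn1, at 2 places, and in no other of the 9 windows. The 250 bases before the start are shown for Gclm and Srxn1, the genes whose Combination samples lay above all Control samples, with matched motifs in capitals. The Gclm stretch (chr3:122245307-122245556, plus strand) holds the element core in reverse orientation from position -134, and the Srxn1 stretch (chr2:152105274-152105523, plus strand) holds AP-1 letters from -102 and -45.
Gclm: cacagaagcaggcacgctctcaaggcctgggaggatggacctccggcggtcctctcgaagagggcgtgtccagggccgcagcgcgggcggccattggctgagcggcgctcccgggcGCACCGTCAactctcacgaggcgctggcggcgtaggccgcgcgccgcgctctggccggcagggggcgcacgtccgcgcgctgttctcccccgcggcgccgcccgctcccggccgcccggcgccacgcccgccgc
Srxn1: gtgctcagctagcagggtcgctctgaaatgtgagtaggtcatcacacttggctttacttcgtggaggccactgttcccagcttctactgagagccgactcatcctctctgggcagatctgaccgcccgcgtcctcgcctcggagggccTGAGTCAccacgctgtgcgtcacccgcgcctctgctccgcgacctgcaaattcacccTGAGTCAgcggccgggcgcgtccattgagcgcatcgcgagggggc

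The other matches of the core are shown with 10 bases on each side where the window allows, read along the gene's strand. The Srxn1 match begins at +29, the Txnrd1 match at -92, the G6pdx match at -57 and the Nfe2l2 match at -240. A match of letters is a description of the sequence and no evidence of binding.
Srxn1: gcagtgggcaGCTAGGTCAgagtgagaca
Txnrd1: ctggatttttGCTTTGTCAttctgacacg
G6pdx: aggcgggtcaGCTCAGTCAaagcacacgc
Nfe2l2: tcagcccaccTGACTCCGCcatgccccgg

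Several libraries carried transcripts of other tissues, which bears on every comparison with the Combination group. A list of 20 hepatocyte genes took 0.813%, 19.4% and 7.98% of all FPKM in Combination replicates 1, 2 and 3. It took between 0.197% and 1.48% in GC, between 0.142% and 0.556% in ICB and between 0.0223% and 0.0383% in Control, where all 20 genes were above 0 in no library. Combination replicate 1 had a hepatocyte share above that of every ICB and Control library. Apoa1 alone gave 3721 of the 5027.5 FPKM of that list there. Alb stood at 217 FPKM in that library, against 41.7, 288 and 369 FPKM in ICB replicates 1, 2 and 3. The tissue that gave this Apoa1 was not tested. The same library also held small intestinal transcripts: 16 intestinal genes took 0.950% of its FPKM, against at most 0.108% in any other library. Of their defining markers, Sis, Lct, Alpi and Cdx2 were at 0 in every GC, ICB and Control library. Skeletal muscle genes reached 0.642% in GC replicate 2 and 0.221% in Control replicate 2. The 7 genes of a biliary and tumour list took 0.831%, 0.110% and 1.42% of FPKM in Combination replicates 1, 2 and 3. They took between 0.405% and 0.847% in GC, between 0.436% and 0.708% in ICB and between 0.291% and 0.450% in Control. Among them, Spp1 alone gave 7598 of 7794 FPKM in Combination replicate 3. Sox9 stood between 7.56 FPKM, in Combination replicate 2, and 91.9 FPKM in all libraries. The biliary keratin gene Krt19 was at 0 in Control replicates 2 and 3. FPKM summed to between 547146 and 660067 per library. Since reads could not be recovered from these values, the depth of each library is unknown and no counting error can be attached.

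Among the 10 genes, Gclm was the one that passed the test in Combination tumours against Control, with Srxn1 as a second after TMM scaling of the libraries. The Gclm level was about 4.17 times that of Control, by the ratio of group means. Gclc, the partner subunit, reached a similar ratio of 4.67 but was raised in 2 of 3 samples and did not pass. Srxn1 was higher in every Combination sample than in any Control sample without passing the test. The other 7 genes overlapped between these groups, and no gene passed the test in GC or ICB tumours against Control. A count of 1 of 10 stood beside 3.95% of all 12765 genes that passed in Combination against Control (limma, Benjamini-Hochberg adjusted p under 0.05), a comparison in which 453 genes were higher and 51 lower. Of the 10 genes, 7 had a positive and 3 a negative difference, with a median of 0.10 on the log2(FPKM + 1) scale, against -0.29 over all genes tested. With TMM scaling the same 7 and 3 counts stood beside medians of 0.39 for the members and -0.04 over all genes.

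**Figure D1:**
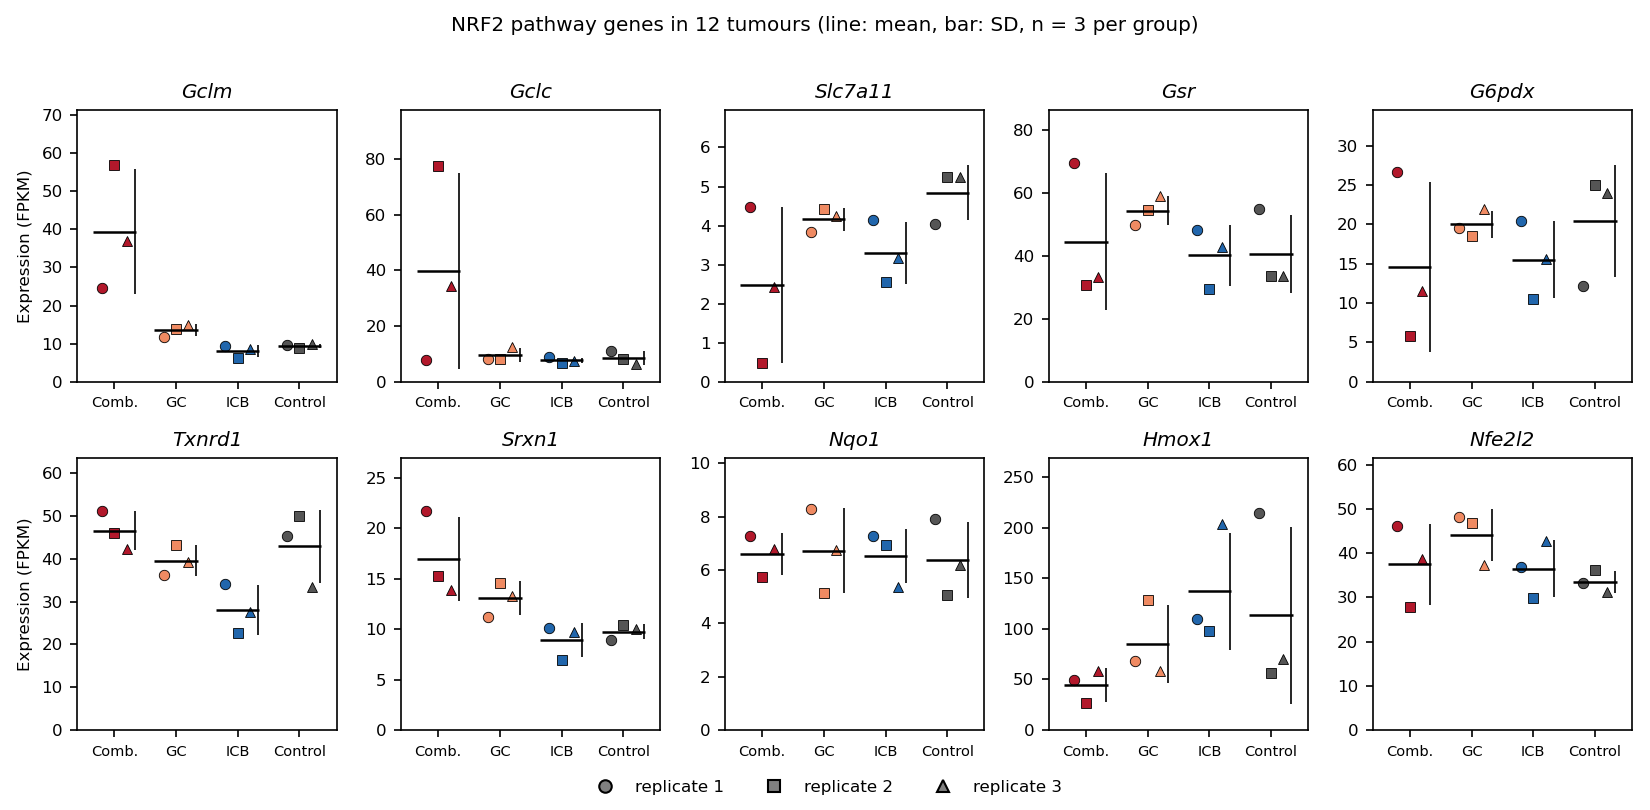
Expression of the 10 genes (FPKM, linear axis from 0) in each of the 12 tumours, by group, with the mean as a line and the SD as a bar (n = 3). The 3 Combination samples of Gclm lie between 24.5 and 56.8 FPKM, above all other samples, whereas the Combination samples of Gclc spread from 7.82 to 77.6 FPKM.

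Glutathione is made in a first, rate-limiting step by glutamate-cysteine ligase, whose modifier subunit is encoded by Gclm (chromosome 3, 122245557 to 122270732, GRCm38, plus strand). Gclm stood at 24.5, 56.8 and 36.8 FPKM in Combination tumours and at 11.8, 13.8 and 14.9 FPKM in GC tumours. It stood at 9.27, 6.35 and 8.60 FPKM in ICB tumours and at 9.65, 8.82 and 9.84 FPKM in Control tumours. Combination samples were thus above every sample of the other groups, and GC samples were above every Control sample. The group means were 39.4 ± 16.3 FPKM in Combination, 13.5 ± 1.58 in GC, 8.07 ± 1.53 in ICB and 9.44 ± 0.54 in Control (SD, n = 3 each). The difference on log2(FPKM + 1) was 1.87 ± 0.28 (SE) for Combination against Control, with an adjusted p of 0.00376 in limma. Against ICB it was 2.09 ± 0.28 (adjusted p = 0.00319), and against GC it was 1.40 ± 0.28, which did not pass (adjusted p = 0.0543). In GC against Control the difference was 0.47 ± 0.28 and also did not pass (adjusted p = 0.65), and in ICB against Control it was -0.22 ± 0.28 (adjusted p = 1). These comparisons share samples and are not independent of each other. Of the exon bases of Gclm, 4.71% lie in the gene models Gm17494, on the other strand, or Gm6061.

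Hepatocyte transcripts moved with Gclm within the Combination group, whose libraries in order of hepatocyte content had 24.5, 36.8 and 56.8 FPKM of Gclm. In bulk tissue, fewer cells of a type and less RNA per cell cannot be told apart. The part of hepatocyte transcripts in the Gclm level, and that of intestinal transcripts in Combination replicate 1, was not tested. The call for Combination against Control was made in all 12 fits that left out 1 library each, with differences from 1.58 to 2.16 and adjusted p from 0.000167 to 0.0255. With both hepatocyte-rich libraries left out, so that Combination was 1 sample assumed to vary like the other groups, the difference was 1.29 ± 0.25 (adjusted p = 0.0249). The library that remained also carried transcripts of other tissue. In the same fit 19 of 20 hepatocyte-list genes had a positive difference from Control (median 3.17). So did 13 of 13 intestinal genes tested (median 5.16). Which tissue gave the transcripts of the hepatocyte list in this library was not tested. Without Combination replicate 1, the difference from GC was 1.69 ± 0.25 and passed (adjusted p = 0.00164). The interaction of GC and ICB compared the Combination difference from Control with the sum of the single-treatment differences, on the log2(FPKM + 1) scale. It was 1.62 ± 0.40 and did not pass (limma, adjusted p = 0.325), whereas without Combination replicate 1 it was 1.91 ± 0.33 and passed (adjusted p = 0.00948).

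The catalytic subunit of the ligase is encoded by Gclc (chromosome 9, 77754535 to 77794485, plus strand). Gclc stood at 7.82, 77.6 and 34.3 FPKM in Combination tumours and at 8.10, 8.37 and 12.4 FPKM in GC tumours. It stood at 8.77, 6.72 and 7.63 FPKM in ICB tumours and at 11.1, 8.13 and 6.41 FPKM in Control tumours. The high samples were Combination replicates 2 and 3, the hepatocyte-rich libraries, and Combination replicate 1 lay inside the Control range. Combination differed from Control by 1.63 ± 0.60, which did not pass in limma (adjusted p = 0.126). It was 2.49 ± 0.36 and passed without Combination replicate 1 (adjusted p = 0.000876), and it was 0.91 ± 0.47 without Combination replicate 2 (adjusted p = 0.374). With both hepatocyte-rich libraries left out it was -0.09 ± 0.34 (adjusted p = 0.935), so its direction rested on those libraries. The ratio of Gclm to Gclc in FPKM was 3.14, 0.732 and 1.08 in Combination replicates 1, 2 and 3, from 1.21 to 1.65 in GC, from 0.945 to 1.13 in ICB and from 0.869 to 1.53 in Control. Combination replicate 1 therefore had the highest share of modifier to catalytic transcript among the 12 libraries, and Combination replicate 2 the lowest.

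**Figure D2:**
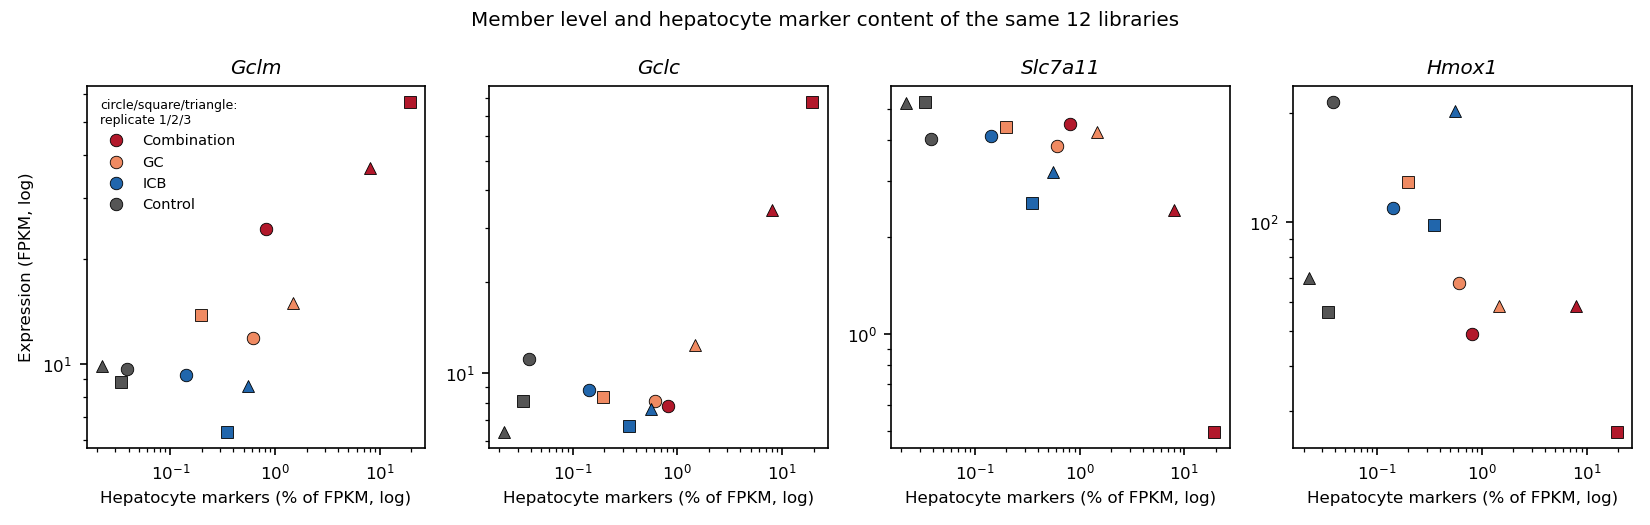
Level of Gclm, Gclc, Slc7a11 and Hmox1 (FPKM, log axis) against the share of FPKM taken by 20 hepatocyte genes (percent, log axis) in the same 12 libraries. Combination replicates 2 and 3, at 19.4% and 7.98%, are highest for Gclc, while Combination replicate 1, at 0.813%, is above all GC, ICB and Control libraries for Gclm and among them for Gclc.

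Cystine for glutathione enters the cell through the antiporter xCT, encoded by Slc7a11 (chromosome 3, 49892526 to 50443614, minus strand). Slc7a11 was the weakest of the 10 genes, with a mean of 3.69 FPKM over all samples. It stood at 4.49, 0.496 and 2.43 FPKM in Combination tumours, between 3.84 and 4.41 FPKM in GC tumours and between 2.56 and 4.13 FPKM in ICB tumours. Control tumours had 4.04, 5.25 and 5.24 FPKM. Its lowest values were those of the libraries in which Gclc was highest, and Combination and Control overlapped through Combination replicate 1. Combination differed from Control by -0.93 ± 0.39 (limma, adjusted p = 0.164), and -1.36 ± 0.33 without Combination replicate 1 (adjusted p = 0.0195). With the hepatocyte-rich libraries left out it was -0.08 ± 0.26 (adjusted p = 0.914).

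Gsr (chromosome 8, 33652523 to 33698163, plus strand) encodes glutathione reductase, which recycles oxidised glutathione. It stood at 69.4, 30.6 and 33.3 FPKM in Combination tumours and at 49.7, 54.4 and 58.9 FPKM in GC tumours. ICB samples lay between 29.3 and 48.1 FPKM, and Control tumours had 54.9, 33.6 and 33.5 FPKM. In both Combination and Control, replicate 1 was high and the other libraries lay close together, and the difference was 0.06 ± 0.34 (limma, adjusted p = 0.912). G6pdx (chromosome X, 74409483 to 74429194, minus strand) encodes the enzyme that opens the pentose phosphate route and makes the NADPH that glutathione reductase spends. It stood at 26.6, 5.76 and 11.5 FPKM in Combination tumours, between 18.5 and 21.9 FPKM in GC tumours and between 10.5 and 20.4 FPKM in ICB tumours. Control tumours had 12.2, 25.0 and 24.0 FPKM. The 2 hepatocyte-rich libraries were the lowest but for ICB replicate 2, at 10.5 FPKM, which lay between them. The difference of Combination from Control was -0.63 ± 0.46 and did not pass (limma, adjusted p = 0.372), and without those libraries it was 0.43 ± 0.44 (adjusted p = 0.697). G6pd2, a near-identical copy, reached at most 0.233 FPKM. Of the exon bases of G6pdx, 13.6% overlap Ikbkg on the other strand, and whether counting used strand is not given in the sources used here.

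Srxn1 (chromosome 2, 152105516 to 152111376, plus strand) encodes sulfiredoxin, which restores overoxidised peroxiredoxins. It stood at 21.7, 15.3 and 13.9 FPKM in Combination tumours and at 11.2, 14.6 and 13.3 FPKM in GC tumours. It stood at 10.1, 6.94 and 9.70 FPKM in ICB tumours and at 8.89, 10.4 and 9.98 FPKM in Control tumours. All Combination and all GC samples lay above all Control samples, and the highest value was that of Combination replicate 1, the library with intestinal transcripts. The difference from Control was 0.72 ± 0.23 in Combination (limma, adjusted p = 0.0977), 0.38 ± 0.23 in GC (adjusted p = 0.653) and -0.13 ± 0.23 in ICB (adjusted p = 1). Against ICB, the Combination difference was 0.85 ± 0.23 (adjusted p = 0.0866). When libraries were rescaled by trimmed means of log ratios (TMM), which moved the median difference of Combination from Control over all genes by 0.25, the difference from Control became 1.00 ± 0.20 and passed (adjusted p = 0.0265), as did that from ICB, at 1.05 ± 0.20 (adjusted p = 0.0284). Without the hepatocyte-rich libraries it was 1.08 ± 0.26 against Control (adjusted p = 0.0693) and 1.21 ± 0.26 against ICB (adjusted p = 0.0463).

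Txnrd1 (chromosome 10, 82833951 to 82897712, plus strand) encodes the cytosolic thioredoxin reductase. It stood at 51.2, 46.1 and 42.2 FPKM in Combination tumours, at 36.2, 43.3 and 39.3 FPKM in GC tumours, at 34.1, 22.6 and 27.5 FPKM in ICB tumours and at 45.2, 50.01 and 33.4 FPKM in Control tumours. Combination samples lay above all ICB samples, while GC and Control overlapped with Combination. Between Combination and ICB the difference was 0.72 ± 0.24 (limma, adjusted p = 0.129), that of ICB from Control -0.59 ± 0.24 (adjusted p = 1) and that of Combination from Control 0.13 ± 0.24 (adjusted p = 0.72). None of these passed the test.

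**Figure D3:**
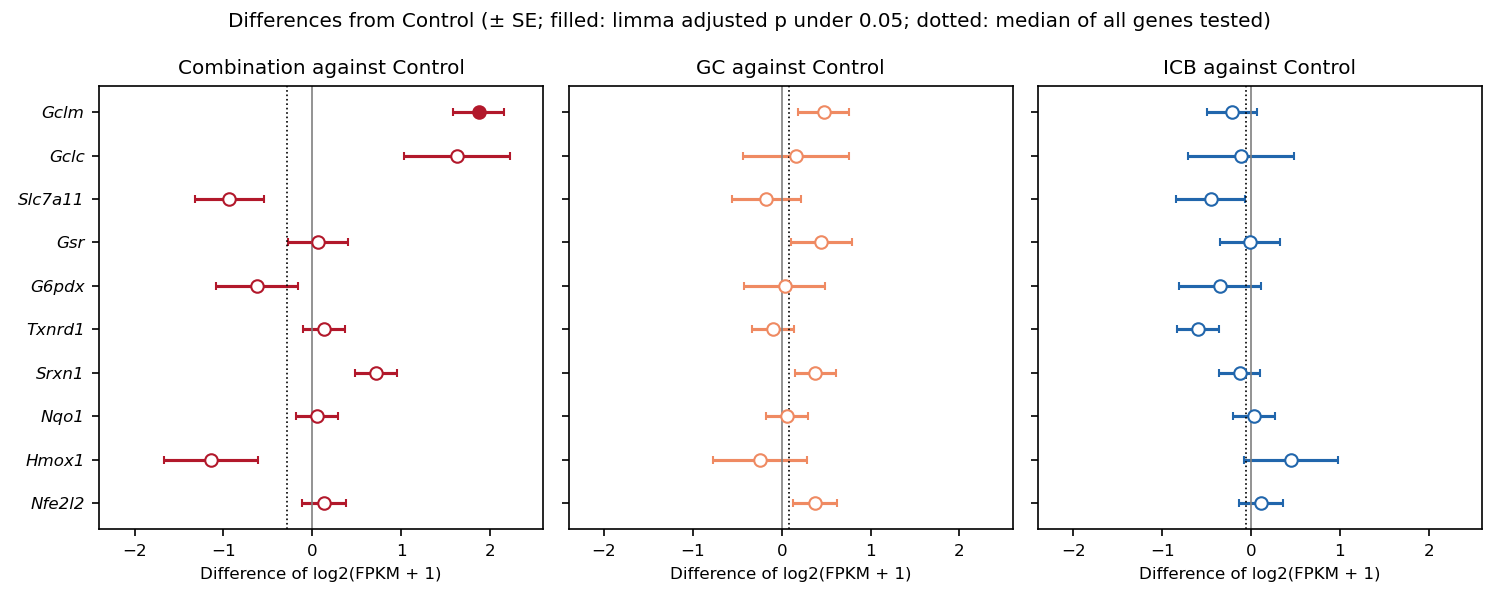
Difference of each treated group from Control for the 10 genes on the log2(FPKM + 1) scale, as limma estimate ± SE. The filled point, Gclm in Combination at 1.87, is the only one past an adjusted p of 0.05, and the dotted lines mark the medians of all genes tested, at -0.29 in Combination, 0.09 in GC and -0.06 in ICB.

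Nqo1 (chromosome 8, 107388225 to 107403206, minus strand) encodes a quinone reductase that is widely used as a readout of NRF2 activity. It stood at 7.27, 5.72 and 6.78 FPKM in Combination tumours, between 5.12 and 8.30 FPKM in GC tumours and between 5.36 and 7.26 FPKM in ICB tumours. Control tumours had 7.90, 5.08 and 6.18 FPKM. All groups overlapped, and means were 6.59 ± 0.79 FPKM in Combination, 6.73 ± 1.59 in GC, 6.52 ± 1.01 in ICB and 6.38 ± 1.42 in Control (SD, n = 3 each). Combination and Control differed by 0.05 ± 0.24 (limma, adjusted p = 0.893), with a range of -0.08 to 0.20 over the fits that left out 1 library.

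Hmox1 (chromosome 8, 75093621 to 75100589, plus strand) encodes haem oxygenase 1, the inducible enzyme of haem breakdown, and was the most abundant of the 10 transcripts with a mean of 95.1 FPKM. It stood at 49.1, 26.3 and 58.6 FPKM in Combination tumours and at 67.9, 128.8 and 58.6 FPKM in GC tumours. ICB tumours had 109.7, 97.9 and 203.1 FPKM, and Control tumours had 214, 56.6 and 69.9 FPKM. All Combination samples lay below all ICB samples, whereas Control was spread by 1 library, replicate 1. The difference of Combination from ICB was -1.59 ± 0.53 (limma, adjusted p = 0.13) and that from Control -1.14 ± 0.53 (adjusted p = 0.193). The difference from Control was negative in all 12 fits that left out 1 library, from -1.51 to -0.56, and passed in none. Macrophages are a known source of Hmox1, and 10 macrophage genes took 1.14%, 0.140% and 0.252% of FPKM in Combination replicates 1, 2 and 3, from 1.14% to 1.39% in GC, from 0.315% to 0.594% in ICB and from 0.0638% to 1.10% in Control. Their lowest share was that of Control replicate 1, the library with the most Hmox1. In Control replicates 1, 2 and 3 these genes summed to 415.7, 3863 and 7241 FPKM. Of this, Lyz2 alone gave 185.7, 2910 and 6176 FPKM. The part of macrophage transcripts in the Hmox1 level was not tested.

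Nfe2l2 itself (chromosome 2, 75675513 to 75704641, minus strand) varied little, with a highest sample 1.73 times the lowest. It stood at 46.1, 27.8 and 38.6 FPKM in Combination tumours, at 48.2, 46.8 and 37.3 FPKM in GC tumours, at 36.8, 29.9 and 42.7 FPKM in ICB tumours and at 33.2, 36.2 and 31.1 FPKM in Control tumours. GC samples lay just above all Control samples, with a difference of 0.38 ± 0.25 that did not pass (limma, adjusted p = 0.676). Combination differed from Control by 0.13 ± 0.25 (adjusted p = 0.727), and NRF2 is controlled mainly at the protein, which was not measured here.

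Counts of genes whose groups did not overlap were read against the share of all genes that did the same. In Combination against Control, Gclm and Srxn1 were higher in every sample and no member was lower, where 9.74% of all genes were higher and 13.2% lower. In GC against Control, Gclm, Srxn1 and Nfe2l2 were higher and none lower, where 18.6% of all genes were higher and 9.29% lower. In ICB against Control, none was apart, where 4.65% were higher and 4.67% lower. In Combination against GC, Gclm was higher, where 4.16% were higher and 14.2% lower. In Combination against ICB, Gclm, Txnrd1 and Srxn1 were higher and Hmox1 lower, where 9.47% were higher and 10.1% lower. By the limma test, 0 of the 10 genes passed in GC against Control, where 1 gene of all passed (0.00783%) and 1259 had an unadjusted p under 0.05, none of them a member. In ICB against Control, 0 of all genes passed (0%), and 223 had an unadjusted p under 0.05, Txnrd1 among them. In Combination against GC, 0 of the 10 passed beside 0.666% of all genes. Gclm and Gclc had an unadjusted p under 0.05 there, as did 2105 of all 12765 genes. In Combination against ICB, Gclm passed beside 2.24% of all genes. The interaction was passed by 0 of the 10 genes and by 0.0157% of all. Gclm and Txnrd1 had an unadjusted p under 0.05 in it, as did 1033 of all 12765 genes.

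Genes of the proteins that control NRF2 gave no call. Of 12 regulator genes tested, 0 passed in any of the 6 comparisons by limma. In Combination against Control 3 of them had an unadjusted p under 0.05, as did 3359 of all 12765 genes. In that comparison 1 regulator had a positive and 11 a negative difference (median -0.53), where 4207 of all genes were positive and 8557 negative. With TMM scaling 4 regulators were positive and 8 negative (median -0.24), where 6015 of all genes were positive and 6749 negative. Keap1, which captures NRF2, stood at 12.7, 16.6 and 15.9 FPKM in Combination tumours and at 14.2, 12.7 and 13.6 FPKM in Control tumours. Cul3, the scaffold of the ligase, had the smallest p, at 22.2, 13.6 and 20.9 FPKM in Combination and 18.1, 18.1 and 15.5 FPKM in GC. It was at 21.3, 14.5 and 19.1 FPKM in ICB and at 37.4, 30.9 and 24.8 FPKM in Control. Every treated sample of Cul3 lay below every Control sample, as 13.2% of all genes did in Combination, 9.29% in GC and 4.67% in ICB. The differences from Control were -0.69 ± 0.26 in Combination (adjusted p = 0.131), -0.80 ± 0.26 in GC (adjusted p = 0.312) and -0.73 ± 0.26 in ICB (adjusted p = 1). Without Combination replicate 1 the Combination difference passed (adjusted p = 0.0468). Gsk3b, a kinase that marks NRF2 for another route of destruction, followed with -0.62 ± 0.27 in Combination against Control (adjusted p = 0.173).

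Of 27 other genes known as NRF2 targets, 6 rose in Combination against Control and 0 fell. Of all genes tested, 3.95% passed in that comparison. The median difference of the 27 was 0.53, beside -0.29 over all genes. With TMM scaling 5 rose, where Gsta1 was called and Mgst1 and Osgin1 were not. Without the hepatocyte-rich libraries 4 rose, Cbr1 and Abcc2 of the 6 and, beyond them, Gsta1 and Gpx2, in a fit that rests on the library with intestinal transcripts. Cbr1, a carbonyl reductase, stood at 43.7, 87.6 and 40.5 FPKM in Combination tumours and at 14.6, 15.4 and 17.1 FPKM in GC tumours. It stood at 11.3, 11.2 and 11.7 FPKM in ICB tumours and at 7.87, 6.75 and 10.4 FPKM in Control tumours. The difference of Combination from Control was 2.57 ± 0.29 (limma, adjusted p = 0.000665), and Combination was also higher than GC (1.71 ± 0.29, adjusted p = 0.0237) and than ICB (2.14 ± 0.29, adjusted p = 0.003). Combination replicate 1 was as high for Cbr1 as replicate 3. Its call against Control was made in all 12 fits that left out 1 library. The call against GC was lost with a pseudocount of 0.1 FPKM (adjusted p = 0.0583), with TMM scaling (0.0778) and with the replicate block (0.0552). It was also lost without any 1 of the GC libraries or without ICB replicate 2 or 3, with adjusted p from 0.0517 to 0.134.

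The other 5 genes of that list that rose had their levels in the order of the hepatocyte content of the Combination libraries. Abcc2, which exports glutathione conjugates into bile, stood at 3.93, 35.0 and 25.0 FPKM in Combination tumours and was listed at 0 in every Control library (adjusted p = 0.00376). Gstm3 stood at 6.22, 76.9 and 51.1 FPKM and Gsta2 at 1.24, 7.22 and 5.23 FPKM in Combination, and both were listed at 0 in Control (adjusted p = 0.00717 and 0.0306). Both encode glutathione transferases of families with closely related members, between which reads may be shared. Mgst1, named beyond the rule as is Osgin1 since they complete the count, stood at 106.9, 1954 and 909 FPKM in Combination, against 48.2, 34.5 and 52.9 FPKM in Control. Osgin1 stood at 9.05, 38.4 and 27.5 FPKM in Combination, against 4.87, 4.81 and 2.99 FPKM in Control. In all 5 the lowest Combination library was replicate 1 and the highest replicate 2, and the part of hepatocyte content in the result was not tested. Without the hepatocyte-rich libraries the differences from Control were 2.85 ± 0.86 for Gstm3 and 1.16 ± 0.46 for Gsta2. Neither passed there, with 1 Combination sample left, and Gsta2 passed in 4 of the 12 fits that left out 1 library. Against GC, 2 of the 27 rose, Cbr1 and Abcc2 (limma, adjusted p = 0.0442 for Abcc2), where 0.666% of all genes passed. The Abcc2 call against GC was lost in each other setting and made in 1 of 12 fits that left out a library, the one without Combination replicate 1 (otherwise adjusted p from 0.0552 to 0.22). Against ICB 4 rose, where 2.24% of all genes passed, with limma adjusted p of 0.0105 for Abcc2, 0.0173 for Gstm3 and 0.0437 for Gsta2. The Gsta2 call against ICB was lost with TMM scaling (0.0626), with the replicate block (0.0517) and in 10 of 12 fits that left out a library, with adjusted p up to 0.168. The Gstm3 call was lost without Combination replicate 2 or 3 or any 1 of the ICB libraries, with adjusted p up to 0.0936, and the Abcc2 call without ICB replicate 1 (0.0591) or 2 (0.0557). In GC and in ICB against Control 0 of the 27 passed, with the smallest p for Cbr3 (1.15 ± 0.38, adjusted p = 0.323) and Cbr1 (0.86 ± 0.29, adjusted p = 0.329) in GC and for Gsta4 (-0.77 ± 0.44, adjusted p = 1) in ICB. All groups share 1 estimate of the spread. Without Combination replicates 2 and 3 the Cbr1 difference of GC from Control was thus 0.86 ± 0.17.

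**Figure D4:**
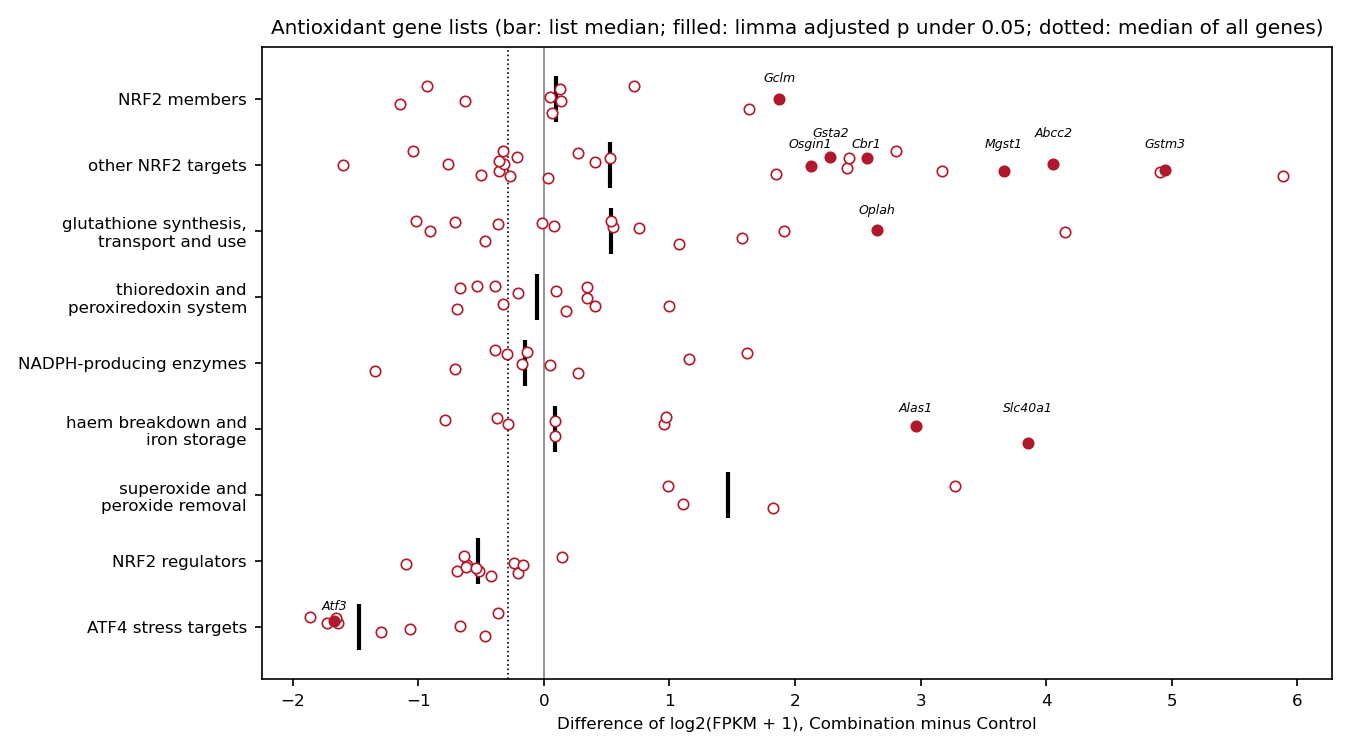
Differences of Combination from Control on the log2(FPKM + 1) scale for each tested gene (point) of 9 gene lists, with list medians as bars and genes past an adjusted p of 0.05 filled and named. The called genes lie in the lists of members (1), other NRF2 targets (6), glutathione (1), haem and iron (2) and ATF4 targets (1, lower). Of all genes tested 3.95% were called, and the dotted line marks the median of all genes at -0.29.

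In Combination against Control 3.95% of all genes passed the test. Around glutathione itself, 1 of 15 further genes of its synthesis, transport and use rose in that comparison and 0 fell (median 0.54). It was Oplah, the oxoprolinase that returns glutamate from glutathione breakdown, at 2.33, 24.5 and 13.1 FPKM in Combination and at 1.40, 0.80 and 0.121 FPKM in Control (2.65 ± 0.64, limma adjusted p = 0.042). Its high samples were again the hepatocyte-rich libraries, and without them the difference was 0.98 ± 0.55 (adjusted p = 0.471), while Ggt1, which begins the breakdown of glutathione outside the cell, was called there. The call was made in 1 of 12 fits that left out a library, the one without Combination replicate 1, and was lost with no filter (adjusted p = 0.0767), TMM scaling (0.0643) or the replicate block (0.0524). In GC against Control 0 of the 15 passed, and Ggct, a glutamylcyclotransferase, had the smallest p (1.17 ± 0.33, adjusted p = 0.227).

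The thioredoxin and peroxiredoxin list had 0 of 12 genes past the test in any comparison. The peroxiredoxin gene Prdx1 came nearest in Combination against Control, at 588, 522 and 375 FPKM in Combination and at 166, 242 and 356 FPKM in Control (1.00 ± 0.33, limma adjusted p = 0.101). Txnip, the inhibitor of thioredoxin, stood at 88.1, 27.1 and 36.0 FPKM in Combination tumours and at 94.4, 124.7 and 103.7 FPKM in GC tumours (-1.25 ± 0.44, adjusted p = 0.248), and it passed without Combination replicate 1 (adjusted p = 0.00917). Of 10 other enzymes that make or feed NADPH, 0 passed in any comparison, and without the hepatocyte-rich libraries 1, Taldo1, rose in Combination against Control. Idh1, the cytosolic isocitrate dehydrogenase, came nearest, at 61.1, 149.5 and 75.4 FPKM in Combination and at 16.0, 30.1 and 45.5 FPKM in Control (1.62 ± 0.42, adjusted p = 0.0554), and passed with a pseudocount of 0.1 FPKM (0.0457) or without Combination replicate 1 (0.0158). Of all 12765 genes, 4207 had a positive difference in Combination against Control. Of 4 genes that remove superoxide and peroxide 0 passed, with all 4 differences positive in that comparison (median 1.46). Among them the catalase gene Cat stood at 28.4, 716.7 and 308.6 FPKM in Combination and at 13.4, 25.2 and 18.2 FPKM in Control (3.27 ± 0.87, adjusted p = 0.0609). Cat passed with a pseudocount of 0.1 FPKM (0.0498), with the replicate block (0.0427) and without Combination replicate 1 (4.45e-05), and its high samples were the hepatocyte-rich libraries. Sod2, the mitochondrial superoxide dismutase, stood at 18.5, 42.6 and 24.0 FPKM in Combination and at 11.7, 13.2 and 10.9 FPKM in Control (1.11 ± 0.29, adjusted p = 0.0605), and passed without Combination replicate 1 (0.00752).

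Of 9 genes of haem and iron handling, 2 rose in Combination against Control and 0 fell (median 0.09), where 3.95% of all genes passed. Alas1, which starts haem synthesis, stood at 34.0, 175.3 and 102.0 FPKM in Combination tumours and at 7.97, 11.4 and 11.1 FPKM in Control tumours (2.96 ± 0.51, limma adjusted p = 0.00866). The iron exporter gene Slc40a1 stood at 3.12, 50.5 and 22.1 FPKM in Combination and at 0, 0.358 and 0.188 FPKM in Control (adjusted p = 0.0143). Both had their highest level in Combination replicate 2, the library richest in hepatocyte transcripts. Without the hepatocyte-rich libraries the differences from Control were 1.67 ± 0.46 for Alas1 and 1.81 ± 0.54 for Slc40a1. Neither passed there, with 1 Combination sample left. The Slc40a1 call was also lost without Combination replicate 3 (limma, adjusted p = 0.0507), Control replicate 1 (0.0649) or Control replicate 3 (0.0579). In GC against Control Slc40a1 differed by 2.33 ± 0.73 (limma, adjusted p = 0.29), and it passed without Combination replicate 1 (0.0446). Alas1 was also higher than in ICB (3.07 ± 0.51, adjusted p = 0.0095), a call lost without ICB replicate 2 (0.0624) or 3 (0.0511). Of all 12765 genes, 8557 had a negative difference in Combination against Control. All 10 genes of the ATF4 list did so (median -1.47), as they did with TMM scaling. The list holds the gene of ATF4, the stress factor that also drives Slc7a11, and ATF4 targets. Without the hepatocyte-rich libraries 7 of the 10 were negative and 3 positive (median -0.33). All 10 were negative too in GC against Control (median -0.37), where 7413 of all genes were positive and 5263 negative. The same held in ICB against Control (median -0.52) and in Combination against GC (median -0.75), where 7396 and 9731 of all genes were negative. In Combination against ICB 8 were negative and 2 positive. By limma with all libraries, where 3.95% of all genes passed in Combination against Control, 1 of the 10 fell and 0 rose. It was Atf3, a stress-induced transcription factor, at 9.13, 4.05 and 5.65 FPKM in Combination and at 7.45, 7.18 and 8.74 FPKM in GC. It stood at 12.3, 25.2 and 18.9 FPKM in ICB and at 30.7, 15.8 and 19.6 FPKM in Control. The difference from Control was -1.67 ± 0.34 in Combination (limma, adjusted p = 0.0196) and -1.34 ± 0.34 in GC (adjusted p = 0.189). With TMM scaling the Combination difference was -1.42 ± 0.37 and did not pass (adjusted p = 0.0634), nor did it pass without Combination replicate 2 (0.0656) or 3 (0.0587) or Control replicate 1 (0.0805) or 3 (0.0667).

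The genes whose pattern over the 12 samples was most like that of Gclm were Galm, Gpt and Aldh1b1, by the Pearson correlation of log2(FPKM + 1), at 0.990, 0.981 and 0.980. These encode galactose mutarotase, an alanine aminotransferase and a mitochondrial aldehyde dehydrogenase. Galm stood at 13.6, 47.2 and 20.7 FPKM in Combination tumours and at 2.36, 1.79 and 1.65 FPKM in Control tumours, and like Gclm it was raised in replicate 1. For Nqo1 the nearest genes were Pparg, Ndufb9 and Tmem80, at 0.832, 0.817 and 0.710, and for Hmox1 they were Pfkfb3, Cxcl2 and Car12, at 0.976, 0.939 and 0.937. Cxcl2, a neutrophil-attracting chemokine, stood at 0.856, 0.566 and 4.13 FPKM in Combination tumours, at 18.5, 18.4 and 30.8 FPKM in ICB tumours and at 22.2, 3.70 and 6.48 FPKM in Control tumours, so that Control replicate 1 was high for it as for Hmox1. The 12 points share their libraries and tissue content, and the values describe likeness alone.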

How the data were processed

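Bulk RNA had been sequenced from 12 tumour samples, 3 in each of the Combination, GC, ICB and Control groups given by the sample titles. Total RNA and stranded libraries were made with Qiagen kits, per the labels' protocols. The authors deposited FPKM values by gene symbol. The submitters' processing notes name the mm10 genome and the tools HISAT2, HTSeq, SAMtools, cutadapt and FastQC. Their versions, the step that made FPKM and the use of strand in counting are not given in the sources used here. Low values, up to 0.1 FPKM, were compared over 66 pairs of samples. The fullest bin of log2 ratios held at most 17.3% of genes, so whole reads were not recovered.

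The deposited FPKM were analysed as log2(FPKM + 1), which makes changes of weak genes look smaller than they are, with limma 3.58.1 in R 4.3.3. A single model held the means of the 4 groups (12 samples, 8 residual degrees of freedom, trended empirical Bayes) for the 12765 genes whose mean reached 1 FPKM. Two-sided p-values were adjusted by Benjamini-Hochberg over those genes, with a threshold of 0.05. The step was tested on simulated data. Alternatives were a pseudocount of 0.1 FPKM, no filter (18672 genes), TMM scaling coded from its published definition, the replicate block, each sample left out, and, chosen after seeing the data, both hepatocyte-rich Combination libraries left out.

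All 10 members are named. In every other list up to 4 called genes of smallest p are named, or, with none called, up to 2 of smallest p; the text gives those nearest to the threshold. The 3 genes most correlated with Gclm, Nqo1 and Hmox1 are named by rule. Keap1, Mgst1, Osgin1, Gsta1, Gpx2, Ggt1, Taldo1, the genes given per library as tissue markers and those of the other observations were chosen after their values were seen. The members and the gene lists were chosen with earlier results of these data known. Locations are from GENCODE M21 (GRCm38), promoters from RefSeq (GRCm38.p6).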

Additional observations from a re-analysis of the deposited data

How the results depend on the processing

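The members called were 1 in Combination against Control, 0 in GC and in ICB against Control, 0 in Combination against GC, 1 in Combination against ICB and 0 in the interaction. With a pseudocount of 0.1 FPKM, with no filter and with the replicate block these 6 counts were unchanged. TMM scaling gave 2 in Combination against Control and 2 in Combination against ICB, Gclm and Srxn1 in both. Over the fits that left out 1 library each, the counts ran from 1 to 3, from 0 to 3 against GC, from 1 to 2 against ICB and from 0 to 2 for the interaction. The highest count came each time without Combination replicate 1, where Gclc passed beside Gclm, as did Slc7a11 against Control and GC. Without Combination replicates 2 and 3 the count against ICB was 2, Gclm and Srxn1. In GC and in ICB against Control it was 0 in every alternative.

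Counts over all genes moved more. Combination against Control gave 504, and 219 to 3167 with 1 library left out. The count was 3167 without Combination replicate 1, 267 without replicate 2, 332 without replicate 3 and 229, 219 and 221 without Control replicates 1, 2 and 3. GC against Control gave 1, 3 with no filter, 0 with TMM, 3 with the replicate block, 254 without Combination replicates 2 and 3, and 0 to 183 with 1 library left out. ICB against Control gave 0 in all alternatives. Combination against GC gave 85, 16 with a pseudocount of 0.1, 49 with TMM, 53 with the replicate block, 260 without Combination replicates 2 and 3, and 24 to 3014 with 1 left out. Combination against ICB gave 286, and 108 to 2050 with 1 left out. The interaction gave 2, 0 with a pseudocount of 0.1, 7 with no filter, 0 with the replicate block, 226 without Combination replicates 2 and 3, and 0 to 812 with 1 left out. The highest of each of these ranges came without Combination replicate 1. In GC against Control a fit without Combination libraries keeps both group means and changes the spread, which all groups share. What made the counts differ was otherwise not tested.

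Differences near 0 changed sign with 1 library left out: in Combination against Control Nqo1 ran from -0.080 to 0.20, Txnrd1 from -0.035 to 0.25, Gsr from -0.30 to 0.30 and Nfe2l2 from -0.027 to 0.33, and in ICB against Control Sod1 ran from -0.22 to 0.019. Without Combination replicates 2 and 3, 14 gene differences changed sign. Against Control these were Gclc (-0.086) and G6pdx (0.43). Against GC they were Gclc (-0.25), Rbx1 (0.092), Prdx2 (0.30), Pgls (0.0098), Fech (-0.12), Cat (-0.081), Phgdh (0.52) and Asns (0.54). Against ICB it was Me1 (-0.27), and in the interaction Me1 (-0.59), Fech (-0.0038) and Cat (-0.048). Of 119 gene differences followed, 10 lost and 3 gained their call there, and 5 lost and 2 gained it with TMM.

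The numbers in the titles were not taken to pair the samples: over 18 pairs of equal number the deviations from group means correlated from -0.24 to 0.42 (median 0.03), 8 of them above 0.1, and 6 of 12 samples correlated best with a sample of their own number. All 3 pairs of Combination with ICB were above 0.1 (0.29, 0.14 and 0.20). The sample descriptions number the Control samples and the last Combination and GC samples otherwise than the titles, so the replicate block is one on title numbers, and a block on the other numbers was not fitted. The depth of the libraries is unknown, since FPKM keep no reads, so counting error at weak genes such as Slc7a11 cannot be given.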

Other observations

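Control replicate 1 stood apart from the other Control libraries in several stress and ferritin transcripts, genes singled out here after their values were seen. Beside Hmox1 at 214 FPKM it had 565 FPKM of Sqstm1, the autophagy receptor p62 that competes for KEAP1, against 235 and 178 FPKM in Control replicates 2 and 3. Ddit3, a factor of the integrated stress response, stood at 156.5 FPKM there, against 46.9 and 42.1 FPKM in the other Control libraries, and Maff, a small MAF protein gene, at 63.9 FPKM against 18.4 and 16.7 FPKM. The ferritin genes Fth1 and Ftl1 stood at 3407 and 3770 FPKM, against 1984 and 1950 FPKM in replicate 2 and 1639 and 1859 FPKM in replicate 3. In the same library 10 macrophage genes took 0.0638% of FPKM, against 0.692% and 1.10% in the other Control libraries, and 6 erythroid genes took 0.169%, against 0.0548% and 0.115%. Gclm, Gclc, Srxn1 and Nqo1 stood at 9.65, 11.1, 8.89 and 7.90 FPKM there, against 8.82, 8.13, 10.4 and 5.08 FPKM in replicate 2. In replicate 3 these genes stood at 9.84, 6.41, 9.98 and 6.18 FPKM. With 1 library like Control replicate 1 no test applies.

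Combination replicate 1 held antioxidant transcripts that no other library had at that level, also singled out after their values were seen. Gpx2, a glutathione peroxidase typical of gut epithelium, stood at 200.3 FPKM there, against at most 1.48 FPKM in the other 11 libraries. Ggt1, whose enzyme acts on glutathione outside the cell, stood at 52.0 FPKM there, against at most 0.143 FPKM elsewhere. The intestinal marker Fabp2 stood at 1779 FPKM in the same library and at most 70.3 FPKM in any other.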
